A study of Mus musculus with 9 samples.

Results

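The base of the 19S regulatory particle is the part of the 26S proteasome that sits directly on the proteolytic core. Its genes were taken by symbol from the deposited tables as the 6 ATPases *Psmc1* to *Psmc6* and the 4 non-ATPase subunits *Psmd1*, *Psmd2*, *Psmd4* and *Adrm1*, which makes 10 of the 15122 symbols listed, and all 10 were present in each table. The ATPases form a hexameric ring of the AAA family that unfolds ubiquitin-tagged proteins, opens the gate of the core and threads the substrate through it, while the non-ATPase subunits form the scaffold and carry the receptors for ubiquitin. Nrf1 (encoded by *Nfe2l1*) is a transcription factor bound to the ER that is known for raising proteasome subunit genes when the proteasome falls short, and its relative Nrf2 (encoded by *Nfe2l2*) is known mainly for antioxidant genes. Cardiomyocytes are long-lived cells with a heavy load of contractile protein, and they depend on the proteasome to replace damaged protein.

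Neonatal rat ventricular myocytes (NRVMs) came from Sprague-Dawley rats aged 1 or 2 days and were kept in culture for 48 h before adenovirus was added at a multiplicity of infection of 50, and RNA was taken 48 h later. All groups received a virus. The control group overexpressed LacZ, a bacterial enzyme, and the others overexpressed Nrf1 or Nrf2, with 3 stranded mRNA libraries in each group. The comparisons ask how the transcripts of the base differed between cells with either factor and the control, and between the factors. No source used here says whether the libraries of a group came from separate cultures, so the p-values below measure only the spread between libraries, which may be technical.

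The deposited values were group means. The whole reads of each of the 9 libraries were worked out from their digits, as described under the processing, and the libraries of a group are called A, B and C because they could not be tied to the numbers in the labels. Depth ran from 7874461 to 11905658 reads per library. A normalised read count is the number of reads divided by the library's size factor, and the text uses it within a gene only, since the counts are not per length. *Nfe2l2* had 3472, 3399 and 3493 normalised reads in LacZ libraries and 78772, 77443 and 67555 in Nrf2 libraries, while *Nfe2l1* was not analysed here, so that the label of the Nrf1 group has no such check. Per the study's methods the Nrf2 of the virus was the mouse coding region, while reads were aligned to the rat genome, so these counts may not give its full level. Cardiomyocyte markers were present at a summed 13798 to 15852 RPM (reads scaled to the library total) over all libraries (9 of 10 markers analysed), but single ones went both ways with Nrf1. By the rule given below, 2 of 9 were called higher (*Ryr2* 0.83 and *Actc1* 0.64 on the log2 scale) and 2 lower (*Myh7* -1.07 and *Tnni3* -0.96). With Nrf2, 0 were called by limma, although 6 were higher and 1 lower on the adjusted p alone. Markers of other cells moved with the groups. The 10 fibroblast markers summed to between 13061 and 13946 RPM with LacZ, 3203 to 3443 with Nrf1 and 6466 to 7007 with Nrf2, and 10 of 10 were called lower with Nrf1 and 7 of 10 with Nrf2. The 10 leukocyte markers summed to between 209 and 307 with LacZ, 116 to 120 with Nrf1 and 112 to 122 with Nrf2, the 10 endothelial markers to between 468 and 479, 274 to 279 and 249 to 287. Of 9 leukocyte markers tested, 8 were called lower with each factor, while *Csf1r* stood at 0.46 with Nrf1 and 0.10 with Nrf2. Of the endothelial markers, 7 were called lower with each factor. *Egfl7* stood at 0.35 with Nrf1 and was called higher with Nrf2 (0.78), and *Kdr* stood at 0.15 with Nrf1. The 10 smooth muscle markers summed to between 5425 and 5989, 9588 to 9647 and 7262 to 7533, and they too went both ways. With Nrf1, 3 were called higher (*Des*, *Acta2* and *Tagln*) and 5 lower (*Myh11*, *Rgs5*, *Notch3*, *Mylk* and *Pdgfrb*), with a median of -0.42, and with Nrf2 2 were called higher and 1 lower. The study used *Acta2* as a marker of a group of neonatal cardiomyocytes, so the sum of this list may hold cardiomyocyte reads. How much of it does was not tested. No marker was at 0 in every library, and the part of these shifts in the results below was not tested. The share of all genes called lower than with LacZ is not given here, so the counts of markers called lower stand without that comparison.

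All 10 base genes were upregulated in NRVMs overexpressing Nrf1, by 1.70 to 2.60 times, and all 10 stood lower with Nrf2 than with Nrf1. With Nrf2 the same 10 genes were higher than with LacZ by much smaller amounts, 1.08 to 1.51 times, and only *Psmd1* passed the 1.5-fold threshold. The base as a whole took 2612 ± 33.3 RPM in LacZ libraries, 5486 ± 32.4 in Nrf1 libraries and 3115 ± 17.6 in Nrf2 libraries (mean ± SD, n = 3 libraries each). In bulk RNA, fewer cells of a type and less RNA per cell cannot be told apart, so a level here is that of the whole culture.

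**Figure D1:**
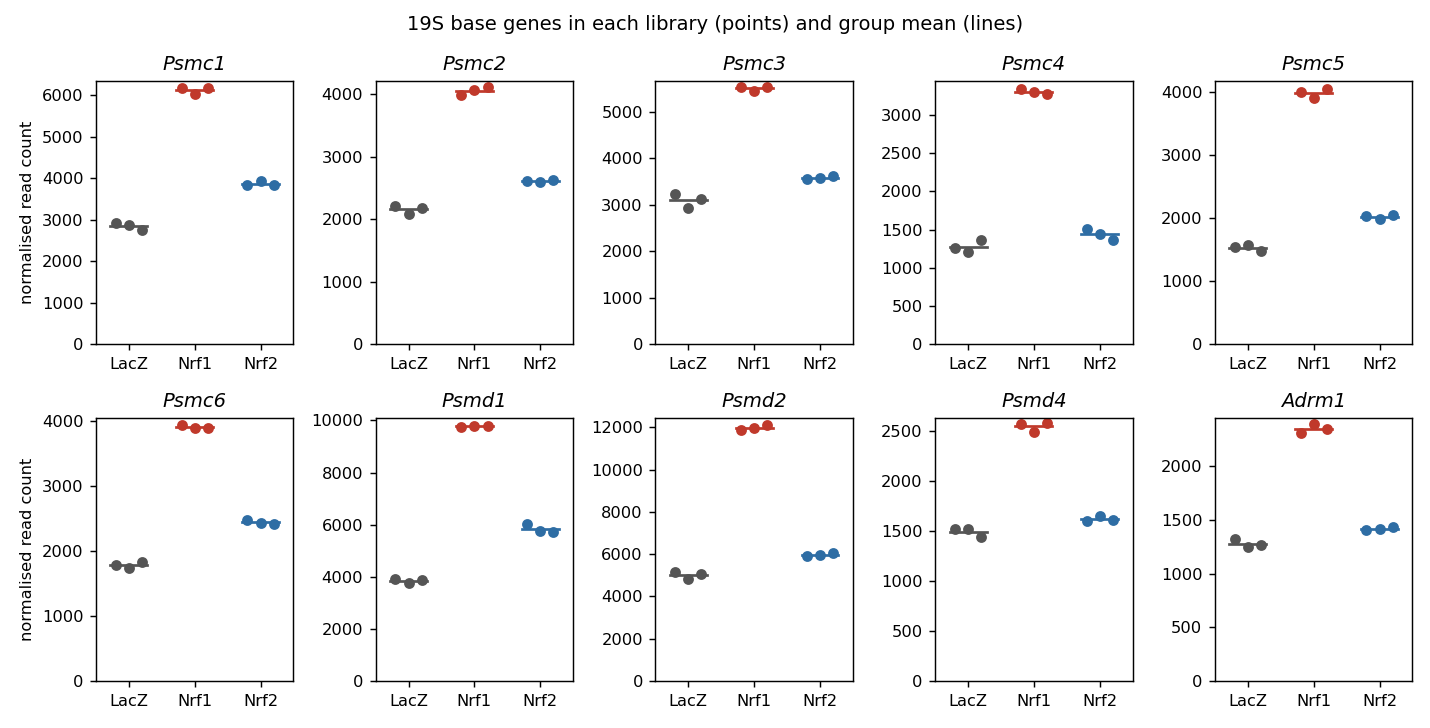
Normalised read count (y axis, from 0) of each base gene in the LacZ, Nrf1 and Nrf2 groups, with 1 point per library and a line at the group mean. The 3 Nrf1 points lie above all other points in each of the 10 panels, and the LacZ and Nrf2 points overlap for *Psmc4* alone.

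A gene was called where the adjusted p was under 0.05 (limma-voom with Benjamini-Hochberg adjustment over 11597 genes tested) and the fold change above 1.5. By this rule all 10 base genes were called higher with Nrf1 than with LacZ, against 11.3% of all genes tested. The 3 Nrf1 libraries lay above the 3 LacZ libraries for all 10 base genes, which held for 35.9% of all genes. The ratio of the deposited means was past 1.5 for all 10, against 11.6% of the 8545 genes whose mean reached 100 in 1 of the groups. The median log2 fold-change of the base was 1.12, while that of all genes tested was 0.00.

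For Nrf2 against LacZ, 1 of 10 base genes was called higher, where 9.04% of all genes were, and the ratio of the deposited means was past 1.5 for 1 of 10, against 7.68% of genes. On the adjusted p alone all 10 rose, against 29.2% of all genes. The libraries did not overlap for 9 of 10, against 31.5%. The median log2 fold-change was 0.26. This comparison uses the same LacZ libraries as that for Nrf1, so the 2 are given side by side and are not independent.

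Comparing the factors directly, all 10 base genes were called lower with Nrf2 than with Nrf1, where 4.37% of all genes were. The ratio of the deposited means was past 1.5 in that direction for all 10, against 4.24% of genes, and all Nrf2 libraries lay below all Nrf1 libraries for all 10, against 31.5% of genes. The median log2 fold-change was -0.70. The amounts of Nrf1 and Nrf2 in the cells were not compared here, while the study described similar overexpression levels of both in NRVMs.

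**Figure D2:**
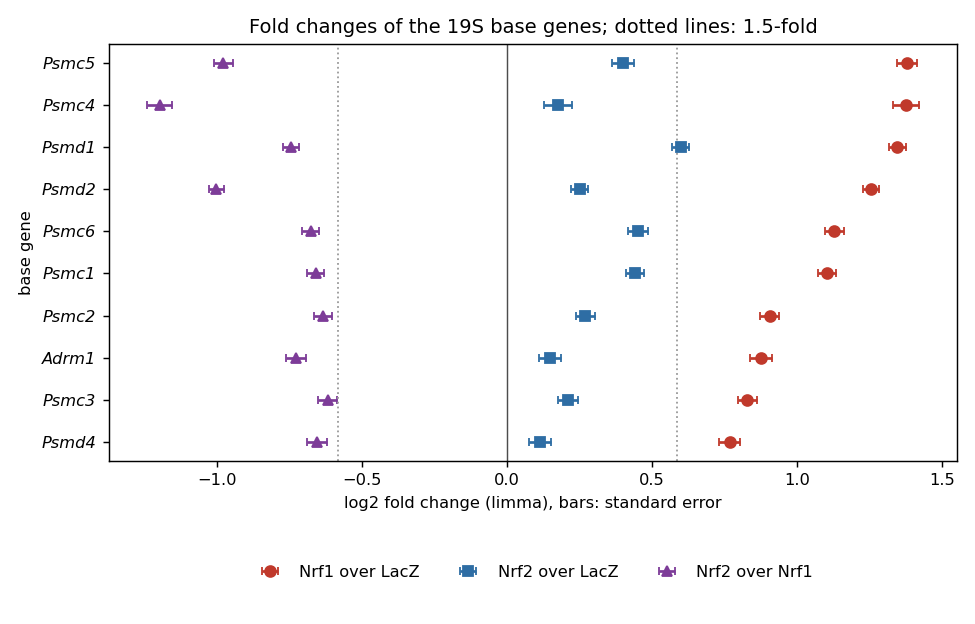
Log2 fold-change (x axis) of each base gene (y axis, ordered by the Nrf1 response) from limma, with bars for the standard error and dotted lines at 1.5-fold. All Nrf1 over LacZ points lie between 0.77 and 1.38, the Nrf2 over LacZ points between 0.11 and 0.60, and the Nrf2 over Nrf1 points between -1.20 and -0.62.

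Among the ATPases, *Psmc1* encodes Rpt2, a subunit whose tail docks into the core and takes part in opening its gate. It had 2916, 2872 and 2765 normalised reads in LacZ libraries, 6165, 6042 and 6174 in Nrf1 libraries and 3848, 3933 and 3839 in Nrf2 libraries. No pair of groups overlapped. The log2 fold-change was 1.10 with Nrf1 (SE 0.030, limma adjusted p = 6.55e-16) and 0.44 with Nrf2 (SE 0.031, adjusted p = 7.76e-10). *Psmc2* encodes Rpt1, the ring neighbour with which Rpt2 pairs. It had 2212, 2087 and 2184 normalised reads with LacZ, 3978, 4067 and 4106 with Nrf1 and 2607, 2590 and 2621 with Nrf2, again without overlap between groups. Its log2 fold-change was 0.91 with Nrf1 (SE 0.033, limma adjusted p = 2.65e-14) and 0.27 with Nrf2 (SE 0.034, adjusted p = 1.64e-06).

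*Psmc3* encodes Rpt5, which like Rpt2 carries a tail that reaches into a pocket of the core. Its normalised reads were 3224, 2935 and 3127 with LacZ, 5527, 5447 and 5525 with Nrf1 and 3560, 3564 and 3615 with Nrf2. The groups did not overlap, and the log2 fold-change was 0.83 with Nrf1 (SE 0.033, limma adjusted p = 1.12e-13), the smallest response of the ATPases to Nrf1. With Nrf2 it was 0.21 (SE 0.034, adjusted p = 3.77e-05). *Psmc6* encodes Rpt4, the partner of Rpt5 in the ring. It had 1789, 1743 and 1831 normalised reads with LacZ, 3940, 3892 and 3898 with Nrf1 and 2480, 2424 and 2422 with Nrf2, with no overlap. The log2 fold-change was 1.13 with Nrf1 (SE 0.033, limma adjusted p = 1.26e-15) and 0.45 with Nrf2 (SE 0.034, adjusted p = 1.63e-09), the highest of the ATPases under Nrf2.

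*Psmc4* encodes Rpt3 and *Psmc5* encodes Rpt6, which pair with each other in the ring. *Psmc4* had 1259, 1201 and 1370 normalised reads with LacZ, 3339, 3301 and 3275 with Nrf1 and 1512, 1443 and 1362 with Nrf2. The lowest Nrf2 library lay below the highest LacZ library, and this was the 1 base gene for which those groups overlapped. Its log2 fold-change was 1.38 with Nrf1 (SE 0.045, limma adjusted p = 7.45e-15) and 0.18 with Nrf2 (SE 0.048, adjusted p = 0.0044). The small Nrf2 difference was 0.09 (adjusted p = 0.107) when libraries were scaled by their totals. *Psmc5* had 1545, 1569 and 1476 normalised reads with LacZ, 3999, 3907 and 4047 with Nrf1 and 2027, 1980 and 2050 with Nrf2, with no overlap. Its log2 fold-change was 1.38 with Nrf1 (SE 0.035, limma adjusted p = 2.41e-16) and 0.40 with Nrf2 (SE 0.037, adjusted p = 3.17e-08). The fold changes of this pair with Nrf1 thus lay within a standard error of each other, while those with Nrf2 were 0.18 and 0.40. Whether genes differ from each other in response was not tested.

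Of the scaffold subunits, *Psmd1* encodes Rpn2, which holds the receptor Adrm1. Its normalised reads were 3922, 3754 and 3864 with LacZ, 9735, 9800 and 9791 with Nrf1 and 6011, 5740 and 5722 with Nrf2. No groups overlapped, and the log2 fold-change was 1.35 with Nrf1 (SE 0.029, limma adjusted p = 3.47e-17). It was 0.60 with Nrf2 (SE 0.030, adjusted p = 5.34e-12), the highest of the base under Nrf2, against a threshold of 0.585 on the log2 scale. The call turned on single libraries, since the value was 0.58 without LacZ library B or without Nrf2 library A, and it was 0.51 with library totals as the scale. The adjusted p stayed at or below 3.77e-10 in these fits.

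*Psmd2* encodes Rpn1, a docking site for ubiquitin, shuttle proteins and the deubiquitinase Usp14. It had 5133, 4842 and 5069 normalised reads with LacZ, 11853, 11953 and 12092 with Nrf1 and 5888, 5963 and 6054 with Nrf2. The groups were apart, with a log2 fold-change of 1.254 with Nrf1 (SE 0.028, limma adjusted p = 3.85e-17) and 0.25 with Nrf2 (SE 0.029, adjusted p = 6.61e-07). Both scaffold genes thus more than doubled with Nrf1.

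*Psmd4* and *Adrm1*, which encode further ubiquitin receptors, had smaller fold changes than the scaffold pair, a difference that was not tested. *Psmd4* encodes Rpn10, which binds ubiquitin chains through interacting motifs at its end. It had 1518, 1519 and 1441 normalised reads with LacZ, 2569, 2492 and 2574 with Nrf1 and 1594, 1645 and 1604 with Nrf2. The groups did not overlap, although LacZ and Nrf2 were close, and the log2 fold-change was 0.77 with Nrf1 (SE 0.036, limma adjusted p = 1.12e-12), the smallest of the base. With Nrf2 it was 0.11 (SE 0.037, adjusted p = 0.0159). That difference missed the threshold when LacZ library C (0.09, adjusted p = 0.0936) or Nrf2 library B (0.10, adjusted p = 0.0591) was left out, and with library totals as the scale (0.03, adjusted p = 0.545). *Adrm1* encodes Rpn13, which binds ubiquitin and recruits the deubiquitinase Uchl5. Its normalised reads were 1320, 1250 and 1269 with LacZ, 2313, 2395 and 2343 with Nrf1 and 1403, 1415 and 1438 with Nrf2, without overlap. The log2 fold-change was 0.88 with Nrf1 (SE 0.037, limma adjusted p = 2.09e-13) and 0.15 with Nrf2 (SE 0.038, adjusted p = 0.00307), and the latter was 0.06 (adjusted p = 0.159) with library totals.

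In the direct comparison of Nrf2 with Nrf1, *Psmc4* fell by 1.20 on the log2 scale (SE 0.043, limma adjusted p = 5.52e-14), *Psmd2* by 1.00 (SE 0.026, adjusted p = 7.95e-16) and *Psmc5* by 0.98 (SE 0.033, adjusted p = 1.91e-14). These were the largest differences of the base between the factors. The other 7 genes lay between -0.75 for *Psmd1* and -0.62 for *Psmc3*. As a share of the response to Nrf1 on the log2 scale, the response to Nrf2 ranged from 12.9% for *Psmc4* to 44.5% for *Psmd1*. It was 14.6% for *Psmd4*, 16.8% for *Adrm1* and 19.98% for *Psmd2*. The remaining ATPases lay higher, at 25.3% for *Psmc3*, 28.9% for *Psmc5*, 29.8% for *Psmc2*, 39.9% for *Psmc6* and 40.0% for *Psmc1*. The ATPases and the non-ATPases had medians of 1.12 and 1.06 under Nrf1 and of 0.33 and 0.20 under Nrf2, on the log2 scale.

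The spread between libraries exceeded counting error for most base genes with LacZ and for few with either factor. The coefficient of variation of the normalised reads ranged from 0.365% to 6.73% over the 30 pairs of gene and group, with a median of 1.77%. Counting error for the same reads, of which there were 1070 to 12518 per gene and library, was 0.924% to 2.94%, with a median of 1.87%. With LacZ the variation was above counting error for 8 of 10 genes (medians 3.01% and 2.37%), with Nrf1 for 3 of 10 (1.10% and 1.596%) and with Nrf2 for 3 of 10 (1.37% and 1.88%). The genes share the libraries of their group, so these counts are not independent. The share of all genes above counting error is not given here, and the groups were not tested against each other in spread. The highest variation was that of *Psmc4* with LacZ, the group and gene of the overlap described above, and the lowest that of *Psmd1* with Nrf1.

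The fold changes of the subunits were unequal, and the make-up of the reads on the base differed between the groups of libraries. *Psmd1* took 15.8% ± 0.0277 of the reads on the 10 genes with LacZ, 18.3% ± 0.106 with Nrf1 and 18.9% ± 0.449 with Nrf2 (mean ± SD, n = 3 libraries each), and the 3 groups did not overlap. *Psmd2* took 20.6% ± 0.211, 22.4% ± 0.1495 and 19.4% ± 0.334, and *Psmc4* 5.25% ± 0.320, 6.18% ± 0.0843 and 4.67% ± 0.229. These 2 shares were therefore highest with Nrf1 and lowest with Nrf2, with no overlap between groups. The share of *Psmc5* was 6.29% ± 0.283 with LacZ, 7.45% ± 0.1003 with Nrf1 and 6.56% ± 0.111 with Nrf2, where LacZ and Nrf2 overlapped.

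The shares of *Psmc2*, *Psmc3*, *Psmd4* and *Adrm1* were highest with LacZ and lowest with Nrf1, without overlap. *Psmc3* went from 12.7% ± 0.329 with LacZ to 10.3% ± 0.0638 with Nrf1 and 11.6% ± 0.128 with Nrf2, and *Psmd4* from 6.14% ± 0.241 to 4.76% ± 0.0705 and 5.24% ± 0.104. For *Psmc1* and *Psmc6* the LacZ and Nrf1 shares overlapped, at 11.7% and 11.5% and at 7.35% and 7.31%, and the Nrf2 shares were higher, at 12.6% and 7.93%. Shares sum to the whole within a library, so a higher share of 1 gene lowers the others, and they were not tested.

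**Figure D3:**
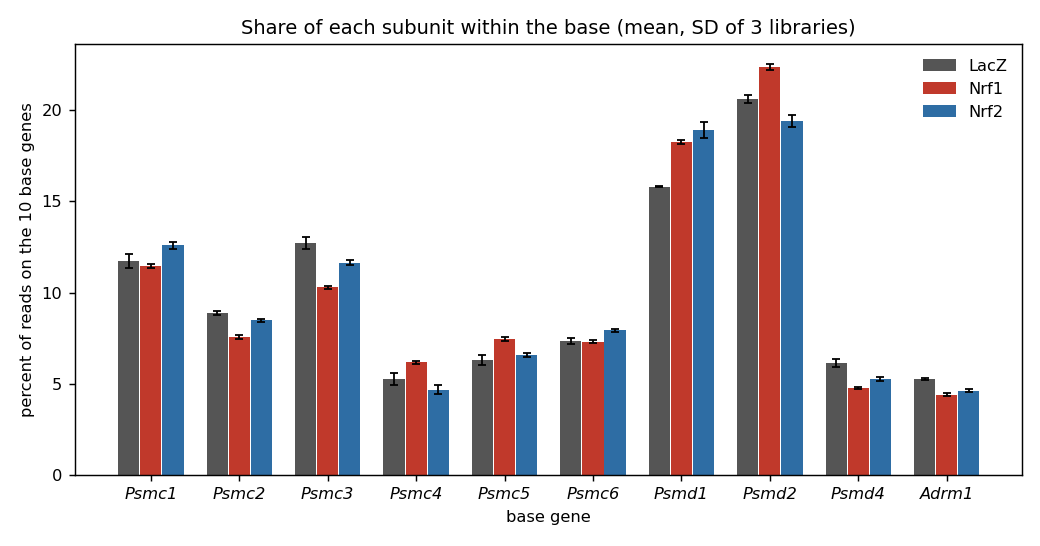
Percent of the reads on the 10 base genes (y axis, from 0) taken by each gene (x axis) with LacZ, Nrf1 and Nrf2, as bars for the mean and error bars for the SD of 3 libraries. *Psmd1* rises from 15.8% with LacZ to 18.3% with Nrf1 and 18.9% with Nrf2, and *Psmc4* is highest with Nrf1 at 6.18%.

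Rat promoters were not used here, and the promoters of the mouse genes of the same symbol (RefSeq, build GRCm38.p6, 250 bases before to 50 after the start) were searched on both strands for the core of the antioxidant response element TGACNNNGC, bound by Nrf1 and Nrf2 with their small Maf partners, and for the CCAAT box, bound by NF-Y. The motifs share no letters in their matches here. Of the 10 base genes, 9 had a promoter, and *Psmc2* had a pair of them. The element core was found in 2 of 9 genes, against 13.99% of all genes and 12.39% of 32851 promoters, and in 4 of 18 genes of the other 19S and 20S subunits that had a promoter. The CCAAT box was found in 4 of 9 base genes, against 41.06% of all genes and 37.41% of promoters, and in 7 of 18 genes of the other subunits. The matches are printed because both motifs bear on the factors overexpressed or on the promoters of this family, with the motif in capitals and 10 bases to either side.
*Adrm1*, element core at -162 to -154, chr2:180171416-180171444, strand of the gene (+): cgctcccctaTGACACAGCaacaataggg
*Psmc6*, element core at -227 to -219, chr14:45329587-45329615, strand opposite to the gene (-): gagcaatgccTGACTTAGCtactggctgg
*Adrm1*, CCAAT box at -65 to -61, chr2:180171513-180171537, strand of the gene (+): gtgaccagggCCAATcgggacctgg
*Psmc1*, CCAAT box at -175 to -171, chr12:100110017-100110041, strand of the gene (+): acatgtttaaCCAATccttgtacca
*Psmc2*, CCAAT box at -28 to -24, chr5:21785237-21785261, strand of the gene (+): cggcctcgcgCCAATgcgcgcggcc
*Psmd4*, CCAAT box at -95 to -91, chr3:95042695-95042719, strand opposite to the gene (+): ggttggttatCCAATagagttggct
*Psmd4* held 2 further CCAAT boxes just after its start. The genes with the element core, *Adrm1* and *Psmc6*, had log2 fold-changes of 0.88 and 1.13 with Nrf1, inside the range of the genes without a match in these windows. A match is not a binding site, and these windows are mouse sequence while the reads are rat.

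The other subunits of the proteasome rose as well, most of them with Nrf1. In the lid of the 19S particle, which holds the deubiquitinase that removes ubiquitin from substrates, 8 of 9 genes were called higher with Nrf1 and 2 of 9 with Nrf2 (medians 1.01 and 0.31). Those called with Nrf2 were *Psmd6* (1.15) and *Psmd11* (0.87). *Psmd6* was also the 1 gene of the base, the lid and both core rings that was higher with Nrf2 than with Nrf1, by 0.13 (limma adjusted p = 0.00633). In the alpha ring of the core, which forms the gate, 7 of 7 genes were called with Nrf1 and 3 of 7 with Nrf2 (medians 1.09 and 0.48). In the beta ring, which carries the proteolytic sites, 7 of 7 were called with Nrf1 and 1 of 7 with Nrf2 (medians 1.12 and 0.28). On the adjusted p alone (limma), 7 of 9 lid, 7 of 7 alpha and 6 of 7 beta genes were higher with Nrf2 than with LacZ. This held for 29.2% of all genes, so the small rise with Nrf2 was shared by the parts next to the base. In the direct comparison, 5 of 9 lid genes, 4 of 7 alpha genes and 5 of 7 beta genes were called lower with Nrf2, with medians of -0.67, -0.77 and -0.95. Whether the base differs from these groups was not tested.

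**Figure D4:**
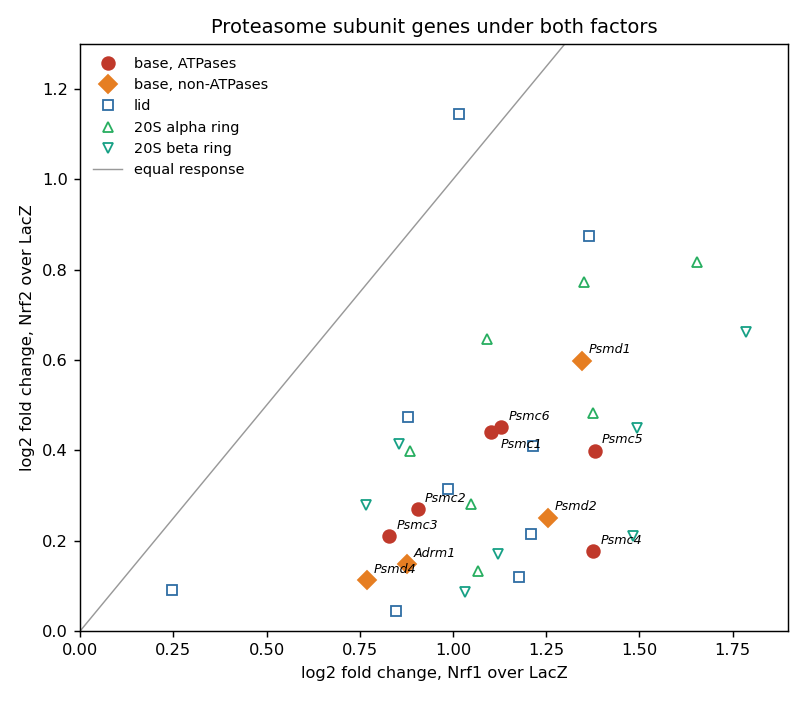
Log2 fold-change with Nrf1 over LacZ (x axis) and with Nrf2 over LacZ (y axis) from limma for the base genes (filled, named) and the lid, alpha ring and beta ring genes (open), with a line at equal responses. All 10 base genes lie below the line, and 1 lid gene, *Psmd6* at 1.01 and 1.15, lies above it. Both axes use the same LacZ libraries, so the points are a description.

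The inducible beta subunits *Psmb8*, *Psmb9* and *Psmb10*, which replace their constitutive partners in the immunoproteasome, moved the other way. All 3 were called lower with both factors, with log2 fold-changes of -2.58, -1.65 and -0.74 with Nrf1 and -1.60, -0.95 and -0.80 with Nrf2. Leukocytes express these genes strongly, and 8 of 9 leukocyte markers tested were also called lower with each factor. Their part in the result was not tested. The share of all genes called lower with each factor is not given here.

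The chaperones that build the base changed to unequal degrees. *Psmd5*, which holds a module with Rpt1, Rpt2 and Rpn1, rose by 0.79 with Nrf1 (SE 0.043, limma adjusted p = 1.10e-11) and by 0.77 with Nrf2 (SE 0.043, adjusted p = 2.37e-11). *Psmd9*, which holds Rpt4 and Rpt5, rose by 0.91 with Nrf1 (SE 0.056, adjusted p = 6.20e-11) and by 0.48 with Nrf2 (SE 0.058, adjusted p = 9.97e-07). *Psmd10*, which holds Rpt3 and Rpt6, missed the threshold, at 0.31 with Nrf1 (SE 0.137, adjusted p = 0.0571) and 0.24 with Nrf2 (SE 0.134, adjusted p = 0.135). *Psmd5* thus stood close together with both factors, with a difference of -0.02 between them (SE 0.039, adjusted p = 0.687), unlike the 10 base genes. The fourth chaperone listed was not analysed here.

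The deubiquitinases that dock on the base were also measured. *Usp14*, which docks on Rpn1, rose by 1.08 with Nrf1 (SE 0.031, limma adjusted p = 1.39e-15) and by 0.71 with Nrf2 (SE 0.032, adjusted p = 1.09e-12). *Uchl5*, which docks on Adrm1, rose by 0.25 with Nrf1 (SE 0.059, adjusted p = 0.00116) and stood at 0.13 with Nrf2 (SE 0.059, adjusted p = 0.0702). Of 5 shuttle proteins that bring ubiquitin-tagged substrates to the receptors of the base, 1 was called higher with Nrf1 and 0 with Nrf2 (limma), where 3 were higher on the adjusted p and 3 on an unadjusted p under 0.05. This was *Rad23b*, at 0.76 with Nrf1 and 0.41 with Nrf2, while *Ubqln1* stood at 0.54 and 0.10, *Ubqln2* at 0.35 and 0.13, *Ubqln4* at -0.12 and -0.11 and *Ddi2* at -0.04 and 0.06.

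The 5 other activators and inhibitors of the core, which bind it in place of the 19S particle, included 2 genes called higher with Nrf1, *Psme4* (0.84) and *Psmf1* (0.72), and 0 with Nrf2. *Psme3* stood at 0.42 with Nrf1, *Psme1* at -0.33 and *Psme2* at -0.46. Of 4 chaperones of the core analysed, 1 was called with Nrf1, *Pomp* (0.78), and 0 with Nrf2, with *Psmg2* at 0.55, *Psmg1* at 0.17 and *Psmg4* at -0.09 under Nrf1. By the adjusted p alone, limma gave 3 of 5 activators and inhibitors and 2 of 4 core chaperones higher with Nrf2, against 29.2% of all genes, and an unadjusted p under 0.05 gave the same counts. The adjusted p also gave 1 activator lower with Nrf2, *Psme2* (-0.54, limma adjusted p = 0.0359).

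Beyond the proteasome, 14 other AAA ATPases gave medians of 0.12 with Nrf1 and 0.08 with Nrf2, and 2 and 3 of them were called higher. These were chosen by name after their values were seen. *Vcp*, the segregase that extracts substrates for the proteasome, stood at 0.97 and 0.61, and *Afg3l2*, a protease of the inner mitochondrial membrane, at 0.79 and 0.98. *Yme1l1*, a relative of the same membrane, was called with Nrf2 at 2.53 (SE 0.56) and stood at 1.19 with Nrf1 (SE 0.63, limma adjusted p = 0.104), both with a large error, and its difference between the factors was 1.35 (SE 0.40, limma adjusted p = 0.00754).

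Genes outside the base were ranked by how near their log2 ratios of deposited means came to the median of the base, 1.11 for Nrf1 over LacZ and 0.26 for Nrf2 over LacZ. Likeness was the straight-line distance in these ratios, over 3 group means of 3 libraries each and 8441 genes. Among the nearest were *Akap5*, *Scx*, *Emc1*, *Unc119*, *Psma4*, *Mrpl55*, *Kremen1*, *Blmh* and *Psmb7*, at distances of 0.0317 to 0.0893, and 2 of them are proteasome subunits. The base genes themselves lay 0.139 to 0.408 from their own median, so the genes named were closer to it than any member. They were picked as the nearest of 8441, which by itself favours small distances, while the members were not picked by distance.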

How the data were processed

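The deposited tables, 3 in number, set 2 groups side by side. Their signal is a group's mean of normalised reads, made by the authors by dividing each library's reads by a size factor for that pair. Per the study's methods, reads were checked with FastQC 0.11.4, aligned to rat Rnor 6.0 with HISAT2 2.0.4, freed of duplicates with SAMtools 0.1.18 and counted with featureCounts 1.6.0. The authors named edgeR 3.20.5 for their comparisons. Columns of the authors' fold changes and p-values were not used. Removing duplicates can lower high counts, and its effect was not tested.

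Each group occurs in 2 tables with different size factors, so its 2 means give 2 equations in the whole reads of 3 libraries. For LacZ 14656 of 14657 genes, for Nrf1 14579 of 14579 and for Nrf2 14746 of 14746 had a single solution. Size factors recomputed from these reads differed from those in the tables by at most 0.00787%. In all, 15095 genes were kept and 27 symbols left out, 26 of them turned into dates by a spreadsheet. No pair of libraries in a group agreed within counting error (chi-square per degree of freedom 1.53 to 5.66).

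Genes over 1 CPM in at least 3 libraries (11597) were tested with limma 3.58.1 (voom, R 4.3.3) in 1 fit of 3 groups with Benjamini-Hochberg adjustment, which was tested on simulated data. Deposited means were compared within a table, without a test and with no pseudocount. Alternatives were fold thresholds of 2 and 1.25, other scalings, other filters, pseudocounts and leaving out each library. All 10 members were named, with genes of lists of 10 or fewer and the 10 genes nearest to the members' median. Some of these are not reported here. The members and lists were chosen with earlier results of these data known. Mouse sequences were used because the reference tables at hand were mouse. The organism field of the labels says mouse, while the cells and the build are rat.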

Additional observations from a re-analysis of the deposited data

How the results depend on the processing

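No direction of a base gene reversed under any alternative tried, and 355 of 360 fits of single base genes kept their direction and their side of the adjusted p of 0.05 (limma). The other 5 were *Psmc4*, *Psmd4* and *Adrm1* with Nrf2 against LacZ, with library totals or without 1 library, as given above. Counts from the deposited means depended on the threshold. At a fold of 2, 6 of 10 were past it with Nrf1, 0 with Nrf2 and 2 between the factors, and at a log2 threshold of 0.32 the count with Nrf2 was 4. At 1.5-fold the count with Nrf2 was 1, and it was 0 after re-centring on the median gene and 0 after division by column sums, because *Psmd1* lies close to that threshold. The limma count with Nrf2 was 0 with library totals, and 0 to 1 when single libraries were left out. Median log2 ratios were 1.11 with Nrf1 (1.06 re-centred, 1.055 by column sums, 1.063 for non-ATPases), 0.26 with Nrf2 (0.247 re-centred, 0.185 by column sums, 0.336 for ATPases, 0.201 for non-ATPases) and -0.71 between the factors (-0.675 re-centred, -0.675 for ATPases, -0.742 for non-ATPases). Over all listed genes the share past 1.5-fold was 15.6% higher with Nrf2 than LacZ and 8.72% lower with Nrf2 than Nrf1.

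No paired analysis was possible because the recovered libraries carry no replicate number. With 3 libraries a group, differences as small as those of *Psmd4* and *Adrm1* with Nrf2 depend on the scale. Counting error of 0.924% to 2.94% per gene and group is of the order of the spread between libraries, so depth also limits how small a difference can be seen.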

Other observations

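The reads on single base genes were many for their length. The study's methods state that duplicates were removed from single-end reads, and yet 9 of the 10 base genes had more reads in at least 1 library than the longest mouse transcript of the same symbol has bases. The most reads in a library came to 4.17 per base for *Psmd2*, 4.09 for *Psmc1* and 3.30 for *Psmd1*, and to 0.59 for *Adrm1*. How duplicates were counted was not tested.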
